A study of Mus musculus with 2 samples.

Results

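The hepatocytes described here held RNA of the glutathione transferase genes Gsta1, Gsta2 and Gm3776 together with that of Lcn2. They were selected on UMI counts (unique RNA molecules) in barcodes of the gene expression library that had at least 500 genes, 1000 or more but fewer than 10000 gene UMIs and under 20% mitochondrial UMIs. The hepatocyte genes Alb, Apoa1, Apoa2, Ttr and Fgb had to make up at least 1% of gene UMIs, 4 MHC class II genes (H2-Aa, H2-Ab1, H2-Eb1 and Cd74) under 0.5%, and Clec4g, Ptprb and Kdr, which mark endothelial cells, at most 1 UMI. Of the 2314 barcodes in these gates with at most 1 UMI of Car3, 152 had at least 3 UMIs of the Gsta genes in sum and at least 1 of Lcn2, out of 13151 barcodes in all. The 1001 barcodes of the same gates with no UMI of the 4 genes served as reference hepatocytes. Another 324 had the Gsta genes at that level without Lcn2, 184 had Lcn2 without the Gsta genes, and 653 lay between these classes.

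All cells came from the livers of 3 BL6 mice, injected as young adults. Plasmids were given by hydrodynamic injection into the tail vein and the cells were taken 6 days later. Such an injection drives plasmid DNA into part of the hepatocytes. Every mouse received a transposon with NRAS and the fluorescent protein mVenus under the ubiquitous CAGGS promoter. In 2 mice NRAS was the oncogenic G12V form, and in the control mouse it was G12V/D38A, which carries a second change in the effector loop. Cells were labelled with 1 hashtag per mouse, sorted for mVenus, pooled and run as 1 library, so the conditions can be told apart only by hashtag. There were no untransfected mice.

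Alpha-class glutathione transferases conjugate electrophiles and lipid peroxides to glutathione in the hepatocyte cytosol, and transcription of their genes is known to respond to the transcription factor NRF2. Lcn2 encodes lipocalin 2, a secreted protein that binds bacterial siderophores. Hepatocytes release it in the acute phase response to IL-6 and NF-κB signalling, and neutrophils store it in their granules.

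The 3 Gsta genes are close relatives on chromosome 9. Their upstream sequences are shown so that the relation among the genes that chose the cells can be seen. The 250 bases before each start are given below from RefSeq (GRCm38.p6), written 5′ to 3′ along the gene's strand, at chr9:78230419-78230668 (plus strand) for Gsta1, chr9:78256879-78257128 (plus strand) for Gm3776 and chr9:78347146-78347395 (minus strand) for Gsta2. Capitals mark the longest run present in all of them, of 29 bases.
Gsta1: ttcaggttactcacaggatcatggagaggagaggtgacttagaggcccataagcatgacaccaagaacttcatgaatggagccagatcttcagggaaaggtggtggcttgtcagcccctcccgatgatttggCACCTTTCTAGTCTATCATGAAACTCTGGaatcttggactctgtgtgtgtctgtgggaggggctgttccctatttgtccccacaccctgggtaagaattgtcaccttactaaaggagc
Gm3776: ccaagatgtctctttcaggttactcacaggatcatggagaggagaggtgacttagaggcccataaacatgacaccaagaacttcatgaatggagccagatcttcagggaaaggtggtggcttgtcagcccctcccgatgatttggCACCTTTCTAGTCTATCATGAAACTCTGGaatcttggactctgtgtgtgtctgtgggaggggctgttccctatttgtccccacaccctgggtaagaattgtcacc
Gsta2: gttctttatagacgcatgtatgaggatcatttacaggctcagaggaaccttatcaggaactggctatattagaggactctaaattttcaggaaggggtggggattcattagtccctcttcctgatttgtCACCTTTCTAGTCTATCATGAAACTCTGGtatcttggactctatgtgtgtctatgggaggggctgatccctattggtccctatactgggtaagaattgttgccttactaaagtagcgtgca
Over the 237 positions that align, the Gsta1 and Gm3776 sequences differed at 1 position, G53A, counted from the first printed base of Gsta1. The Gsta1 and Gsta2 sequences were 55.1% identical over 247 positions without gaps. In the last 400 bases of the transcripts, where a 3′ library reads, 85.5% of the 50-base words of Gsta1 also occurred in Gm3776 and 23.6% in Gsta2. With that overlap of transcripts the split of UMIs between Gsta1 and Gm3776 is uncertain and their sum was used. TGACNNNGC, a core of the antioxidant response element, was not found in these 250 bases of the 3 genes on either strand, and 10.2% of the 32851 promoters in the table held it.

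The selected cells held 1420 UMIs of Gsta1, 266 of Gm3776 and 93 of Gsta2. Per cell the sum of the 3 genes ran from 3 to 63 with a median of 7, and Lcn2 from 1 to 47 with a median of 2. These are the values that chose the cells and are no result about them. Lcn2 stood at 639 CPM (UMIs of a gene per 1000000 gene UMIs of its class; 95% Poisson interval 586 to 697; intervals here cover counting error only), and no single cell held more than 8.99% of its UMIs. With the same gates the Gsta sum reached 2175 CPM in the selected cells, 2674 in the Gsta-only cells, 634 in 1781 deep hepatocytes (10000 UMIs or more) and 262 in 3537 low-depth hepatocytes with 2 or more UMIs of Car3. Gsta2 did not follow the same order, with 114 CPM in the selected cells and 115 in the Car3 class. Of the markers given for these cells beyond the rule genes, S100a11, a calcium-binding protein, had 1108 CPM against 361 in the reference, and Gsto1, an omega-class transferase, had 226 against 185.

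**Figure D1:**
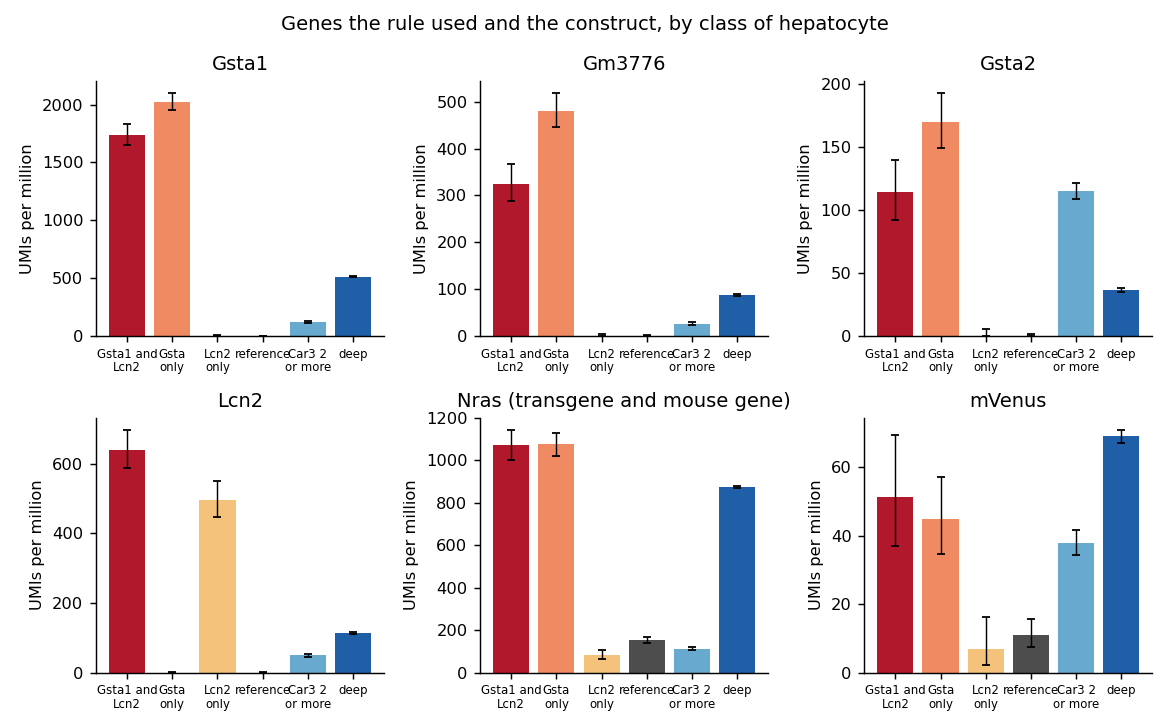
Bars show CPM for the genes the rule used, for Nras and for mVenus in 6 classes of hepatocyte (152 Gsta1 and Lcn2 cells, 324 Gsta only, 184 Lcn2 only, 1001 reference, 3537 with 2 or more Car3 UMIs and 1781 deep), with exact Poisson 95% intervals that cover counting error only. Gsta1 and Lcn2 are at 0 in the reference because the rule set them there, while Nras stands at 1071 in the selected cells and 154 in the reference.

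The thresholds cut through a continuous range. The 35 selected cells with a Gsta sum of exactly 3 had 10109 CPM of Spp1 and 1864 of S100a6, and the 47 cells just outside, with a sum of 2, had 7208 and 1257. Nras went the other way, at 85.8 CPM inside and 296 outside. The 28 selected cells with 1 Car3 UMI had 1724 CPM of Rgn, and the 10 cells just outside, with 2, had 2697. In 70 of the 152 cells Lcn2 rested on a single UMI. Both thresholds were rarely met in barcodes of other cell types. Among 703 barcodes with at least 5 UMIs of the endothelial genes (median depth 3507 UMIs) 18.1% had a Gsta UMI and 5.69% an Lcn2 UMI, but 1 (0.142%) met both thresholds. Among 480 barcodes with at least 2% of UMIs in the MHC class II genes (median depth 7726.5) 1 (0.208%) did, against 6.57% of the gated hepatocytes.

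Depth and mitochondrial share differed between the classes. The selected cells had a median of 5481 gene UMIs and the reference cells 2311. Each comparison with the reference was therefore repeated with 152 reference cells matched one to one in UMIs. When each gated barcode was thinned to 2000 UMIs, 51 of 1623 (3.14%) still met both thresholds. The median mitochondrial share was 0.785% in the selected cells, 0.335% in the reference and 8.63% in the deep hepatocytes. It was under 1% in 87 of the 152 cells and at least 2% in 56. The 5 hepatocyte genes of the gate took a median of 5.16% of UMIs in the selected cells and 2.70% in the reference, and 79 of 152 (52.0%) and 156 of 1001 (15.6%) reached 5%. Few of the barcodes could be traced to a mouse: 138 of the 152 (90.8%) and 90.6% of the reference had no hashtag call.

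**Figure D2:**
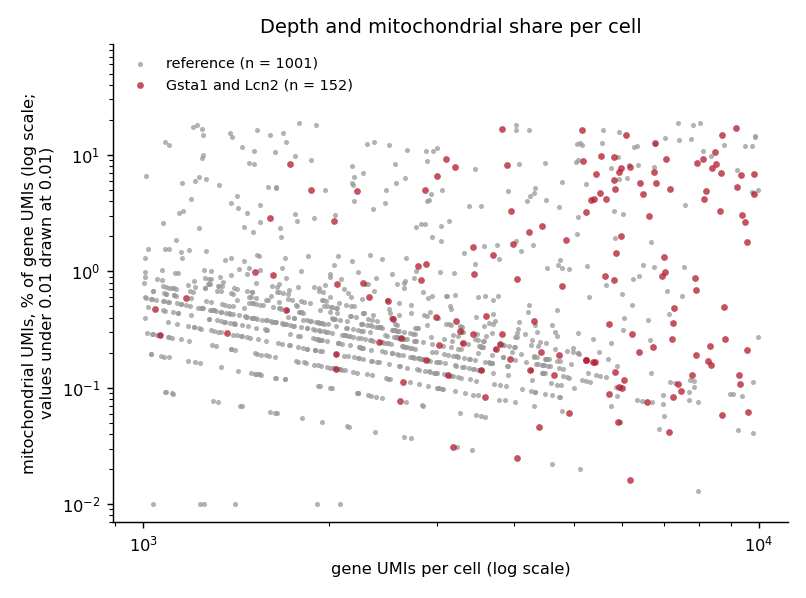
Each point is 1 cell, with gene UMIs on the horizontal axis and the mitochondrial share of gene UMIs on the vertical axis, both on log scales, for 152 Gsta1 and Lcn2 hepatocytes (red) and 1001 reference hepatocytes (grey). The red points lie further to the right (median 5481 against 2311 UMIs) and spread over the whole range of mitochondrial share.

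Hepatocyte genes outside the rule were present, as the label of the samples has it. Trf and Apoe, which are secreted by hepatocytes, were found in 151 and 152 of the 152 cells. The transcription factor Hnf4a was found in 48 cells, at 80.7 CPM. Markers of other cell types were low. The 12 neutrophil markers summed to 2 UMIs (2.44 CPM, reference 48.7), 1 each of S100a8 and S100a9, with 10 of 12 at 0, whereas the Lcn2-only cells held 400 UMIs (553 CPM). The Kupffer and macrophage list had 11 UMIs (13.4 CPM, reference 119), with 5 of 12 markers at 0, Clec4f and Vsig4 among them. The endothelial list had 27 UMIs (33.0 CPM, reference 87.2), with Stab1 and Stab2 at 0, the lymphocyte list 38 UMIs (46.5 CPM, reference 63.9), with 3 of 13 markers at 0, and the erythroid list 3 UMIs (3.67 CPM, reference 4.59). Before scaling each of these lists was lower in the selected cells than in the reference, but TMM scaling, which adds 0.40 to a log2 ratio, turns the erythroid list, at 3 UMIs, and leaves the lymphocyte list about equal. The dendritic list was higher in the selected cells (815 against 511), through Bst2 and Cst3, with 7 of 11 markers at 0, Flt3 and Xcr1 among them. The stellate list (369 against 139) was higher through Ecm1, which held 293 of its 302 UMIs, with 7 of 10 markers at 0, Col1a1 and Lrat among them. The part of other cells in the results below was not tested.

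The mouse of origin set the limit of the comparison. HTODemux called 3 selected cells for hashtag 1, 10 for hashtag 2 and 1 for hashtag 3, among 80, 105 and 52 gated hepatocytes of the same tags. These are shares of 3.75% (exact binomial 95% interval 0.780 to 10.6), 9.52% (4.66 to 16.8) and 1.92% (0.0487 to 10.3), whose intervals overlap. A fixed rule of at least 10 tag UMIs with 80% from 1 tag gave 34, 1 and 0. The rules thus put the majority of called cells under different tags. By the fixed rule 378, 33 and 19 gated hepatocytes had these tags, so most of them were also under hashtag 1. The shares were 8.99% (6.31 to 12.3), 3.03% (0.0767 to 15.8) and 0% (0 to 17.6), whose intervals overlap as well. The deposited table assigns hashtag 1 to the D38A mouse and the study's methods assign hashtag 3 to it. Both sources give hashtag 2 to a G12V mouse. The design set a minimum of 10 selected cells a mouse in at least 2 mice by HTODemux and only 1 mouse had them, so no test was run and no p-value is given. The comparisons below set 1 pool of cells beside another. Genes with at least 50 CPM in either class were compared after TMM scaling, which moved log2 ratios by 0.40, and were counted at a 2-fold difference.

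Against the reference hepatocytes, 247 of 2433 genes (10.2%) were at least 2-fold higher in the Gsta1 and Lcn2 hepatocytes and 123 (5.06%) at least 2-fold lower. The largest ratios included Ly6d, Spp1 and Afp among the higher genes and the pericentral enzymes Glul, Cyp2e1 and Oat among the lower ones. With the reference matched in UMIs the counts were 199 and 95. By library size alone they turned to 129 higher and 339 lower, since the median log2 ratio was then −0.43 in place of −0.03, so 27.6% of the calls were higher in place of 66.8%.

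**Figure D3:**
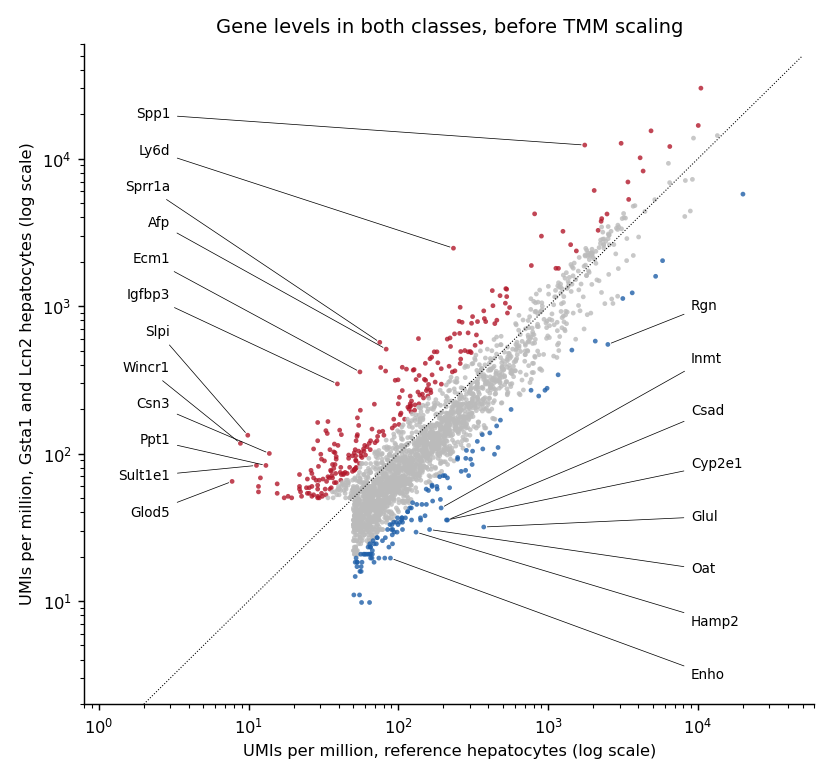
Each point is 1 of 2433 genes, with CPM in reference hepatocytes on the horizontal axis and in Gsta1 and Lcn2 hepatocytes on the vertical axis, both on log scales and before TMM scaling; red marks genes at least 2-fold higher and blue genes at least 2-fold lower after scaling. Names mark those of the highest and lowest ratios with at least 10 UMIs in the selected cells, and the dotted line marks equal levels.

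Ly6d, a surface protein of the Ly6 family that is not part of the adult hepatocyte programme, had 2473 CPM in the selected cells and 233 in the reference, a log2 ratio of 3.81 (interval 3.68 to 3.94). Per cell it ran from 0 to 172 UMIs per 10000 with a median of 11.3, and 84.2% of the selected cells had a UMI against 25.8% of the reference and 28.3% of the depth-matched reference. Spp1, which encodes the matrix phosphoprotein osteopontin, had 12377 against 1757 CPM, a log2 ratio of 3.22 (3.17 to 3.27). Its median was 37.4 UMIs per 10000 in the selected cells and 3.21 in the matched reference, though the ranges, 0 to 904 and 0 to 986, overlapped. Afp, the fetal counterpart of albumin, stood at 511 against 83.0 CPM (log2 ratio 3.02) and was found in 86 selected cells. Igfbp3, a carrier of insulin-like growth factors, had 297 against 39.2 (3.32), and Sprr1a, a precursor of the cornified envelope of squamous epithelium, 568 against 75.2 (3.32). With the matched reference the ratios of Ly6d, Spp1 and Afp were 4.21, 3.02 and 2.90.

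Slpi and Wincr1 had the largest ratios of all, at low levels. Slpi, an inhibitor of leukocyte proteases, had 133 against 9.89 CPM (log2 ratio 4.15, 3.54 to 4.81). It came from 24 of the 152 cells, and 1 cell held 20.2% of it. Wincr1, a long non-coding RNA, had 117 against 8.83 (4.13). Of the other genes named by size, Glod5, a glyoxalase-domain protein, 64.8 against 7.77 (3.46) and Sult1e1, the oestrogen sulfotransferase, 83.1 against 11.3 (3.28). Csn3, which encodes κ-casein, had 100.2 against 13.8 (3.27), and the lysosomal thioesterase Ppt1 83.1 against 13.1 (3.07). Ecm1, a secreted matrix protein, had 358 against 55.4 (3.09).

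Among the lower genes Glul, the glutamine synthetase of hepatocytes around the central vein, had 31.8 CPM in the selected cells and 372 in the reference, a log2 ratio of −3.15 (−3.77 to −2.59) that was −1.99 with the matched reference. Only 14 selected cells had a Glul UMI, and 1 cell held 42.3% of its 26 UMIs. Cyp2e1, the ethanol-inducible cytochrome P450, had 35.5 against 210 (−2.16), and Oat, ornithine aminotransferase, 30.6 against 162 (a log2 ratio of −1.06 with the matched reference). Rgn, the calcium-binding protein regucalcin, had 550.1 against 2505 (−1.79) and was found in 35.5% of the selected cells, 70.4% of the matched reference and 78.6% of the reference. Csad, an enzyme of taurine synthesis, had 35.5 against 213 (−2.18). Inmt, a methyltransferase, had 42.8 against 193 (−1.77) and Enho, which encodes the peptide adropin, 19.6 against 88.6 (−1.78). Macrod1, an ADP-ribose hydrolase, had 9 UMIs in all (−1.80), and the LIM-domain protein Csrp3 9.78 against 56.9 (−2.14). Hamp2, a hepcidin gene whose near-identical copy Hamp makes its count uncertain, had 29.3 against 131 (−1.76). Srgn, a proteoglycan of blood cells, had 9.78 against 64.3 (−2.32), and 1 reference cell held 25.8% of its UMIs there. Among abundant genes Fabp1, the liver fatty acid-binding protein, had 5752 CPM against 19991 (−1.40), with medians of 11.4 UMIs per 10000 in the selected cells and 143 in the matched reference. It is named after its values were seen.

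Glutathione and NRF2-linked genes were examined next, as the selection rests on members of this family. Of 19 such genes compared, 5 were at least 2-fold higher (10.2% of all genes were), none was 2-fold lower, and the median log2 ratio was 0.32 against −0.03 over all genes. The 5 were Fth1, the heavy chain of ferritin, with 16804 against 10056 CPM (1.14), Cyp2a5 with 175 against 53.3 (2.12), Srxn1, which encodes sulfiredoxin (1.77), the transketolase Tkt (1.26) and the epoxide hydrolase Ephx1 (1.18, and 0.35 with the matched reference). By library size alone 2 of the 19 were 2-fold higher and 1 lower. The glutathione synthesis subunits Gclc and Gclm had log2 ratios of 0.23 and −0.56, and catalase −0.87. Nqo1, Hmox1 and Slc7a11, often used as NRF2 readouts, had only 17, 9 and 9 UMIs and were under the minimum level. Of 17 other glutathione transferases 1 was 2-fold higher and 1 lower, with a median of −0.10. The former was Gsta4, which conjugates 4-hydroxynonenal (1048 against 518 CPM, 1.42) and the latter Gstk1 (−1.20). Gsta3 had 4419 against 8902 CPM (−0.61), and Gstm1 and Gstp1 had 0.06 and 0.94.

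The acute phase list, to which Lcn2 belongs by function, had 7 of 17 genes at least 2-fold higher (10.2% of all genes were) and none lower, with a median log2 ratio of 0.88. Lrg1, a leucine-rich glycoprotein, had 372 against 127 CPM (log2 ratio 1.95, 1.72 to 2.17). Il1rn, the interleukin-1 receptor antagonist, had a ratio of 1.84, and the haem carrier Hpx 1.73 (1315 against 522 CPM). Mt1 and Mt2, the metallothioneins, had 1.17 and 1.22, haptoglobin (Hp) 1.19 and ceruloplasmin (Cp) 1.11. With the matched reference 6 of 17 were 2-fold higher, and Hp and Cp, at 0.82 and 0.35, were not. The serum amyloid A genes, which lead the acute phase response in mouse liver, stayed under the minimum, with 28 UMIs of Saa1 and 12 of Saa2. Fga and Fgg, which encode fibrinogen chains, had −0.14 and 0.23. By library size alone 3 of the 17 were 2-fold higher, and in the cells called for hashtag 2 the median was −0.29, with 2 higher and 3 lower of 19. At the 5% hepatocyte gate 5 of 20 were higher and 1 lower.

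**Figure D4:**
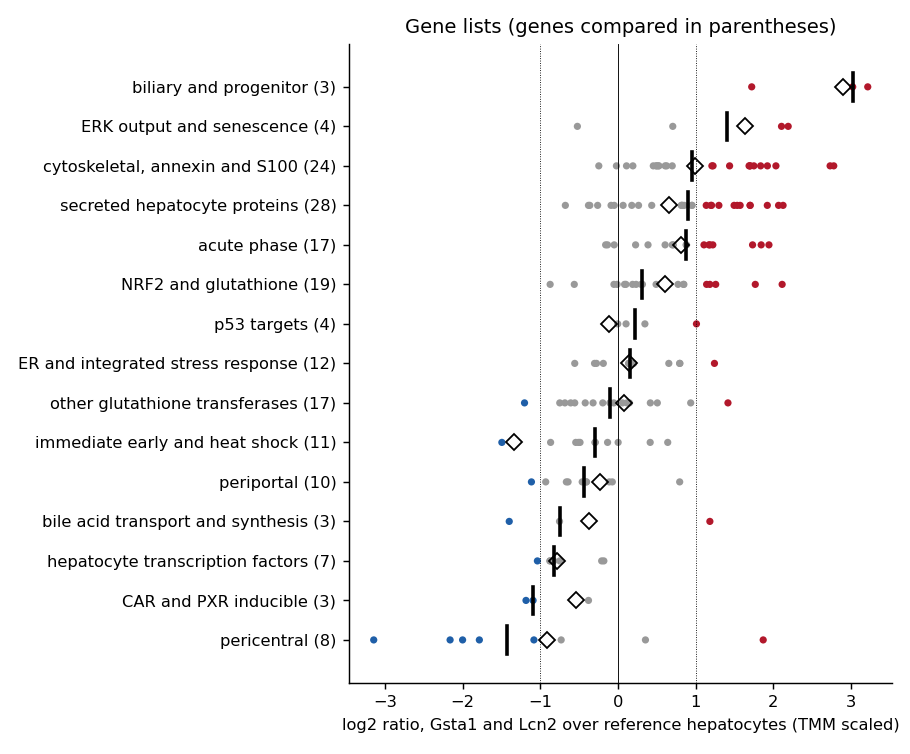
Each point is a gene of 1 of 15 lists with at least 3 genes compared, placed by the TMM-scaled log2 ratio of Gsta1 and Lcn2 to reference hepatocytes; red and blue points lie past the dotted 2-fold lines, black bars are list medians and open diamonds the medians with the depth-matched reference. Cytoskeletal, secreted and acute phase genes lie mostly right of 0 (medians 0.95, 0.90 and 0.88) and pericentral genes left of it (−1.43).

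Genes of the cytoskeleton, annexins and S100 proteins were among the most shifted. Of 24 compared, 12 were at least 2-fold higher (10.2% of all genes were) and none lower. The median log2 ratio was 0.95, and 1.00 with the matched reference. In the cells called for hashtag 2 it was 7 higher and 2 lower of 24. S100a6, a calcium-binding protein, had 4227 against 813 CPM (2.78, 2.70 to 2.86). Its per-cell level ran from 0 to 362 UMIs per 10000 with a median of 17.3, against 1.44 in the matched reference, and 114 of the 152 cells had a UMI. The membrane-binding annexins Anxa3, Anxa2 and Anxa5 had ratios of 2.73, 2.04 and 1.44. Krt18 and Krt8, the keratin pair of hepatocytes, had 1.69 and 1.70, the mesenchymal filament gene Vim 1.84 and the galectin Lgals3 1.93. Actb, at 1897 against 1775 CPM, had 0.50. S100a4 and Anxa1 were at 0.

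All 3 biliary and progenitor genes that could be compared, Spp1, Afp and Tm4sf4 (1.72, and 0.92 with the matched reference), were at least 2-fold higher (10.2% of all genes were). With the matched reference 5 could be compared, of which 2 were higher and 1 lower, and in the cells called for hashtag 2 it was 1 higher and 1 lower of 5. The rest of that list was too low in the main comparison, among them Krt19 with 3 UMIs, Epcam with 5 and Sox9 with 20. Of 4 ERK output and senescence genes, Cdkn2b, an inhibitor of CDK4 and CDK6, had 99.0 against 30.4 CPM (2.11) and Hmga2, a chromatin protein of fetal tissue, 53.8 against 15.5 (2.19). Ccnd1 had 0.71 and Phlda1 −0.52. With the matched reference 3 of 4 were 2-fold higher, Ccnd1 (1.28) among them, but in the cells called for hashtag 2 none was higher and 1 of 4 lower, and without barcodes with Nras or mVenus UMIs neither of the 2 genes left was 2-fold apart. Dusp6 with 20 UMIs and Spry4 with 1, feedback genes of the ERK pathway, could not be compared, and Cdkn2a had no UMI.

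Of the 3 lists of classical stress genes below, none had more than 1 gene at least 2-fold higher in the main comparison. Among the glutathione and NRF2-linked genes above 5 of 19 were. Whether the cells were stressed was not tested, and they are not called so here. Of 12 genes of the ER and integrated stress response, 1 was at least 2-fold higher (10.2% of all genes were), the disulfide isomerase Pdia6 (1.24). The median was 0.15. The chaperone Hspa5 had 0.14, Atf4 −0.19 and Ddit3 0.14. With no Car3 limit on the reference 4 of the 12 were higher (median 0.57). At the 5% hepatocyte gate 0 of 15 were higher and 3 lower (median −0.39). Of 4 p53 targets Bax (1.01) was 2-fold higher, and Cdkn1a, at 44.0 against 58.3 CPM before scaling, had a log2 ratio of −0.003. With the matched reference Bax had 0.69 and 0 of 5 p53 targets were 2-fold higher. With no Car3 limit on the reference 2 of 3 p53 targets were higher (median 1.28), and under 1% mitochondrial UMIs 3 of 5 (1.05). At the 5% hepatocyte gate 0 of 4 were higher (median −0.68). Of 11 immediate early and heat shock genes none was higher and 1, Atf3 (23.2 against 86.5 CPM), was lower. This count depended on the cells compared: 9 of 14 were 2-fold lower with the matched reference, 9 of 11 at the 5% hepatocyte gate and 9 of 11 without barcodes with Nras or mVenus UMIs. The median of the 11 was −0.30, and −1.35 with the matched reference, where Jun and Fos had −2.02 and −1.34. Hspa8 and Hspb1 had 0.41 and 0.64. Only 2 cell cycle genes could be compared, H2afz and Stmn1 (0.02 and 0.09), and Mki67 had no UMI.

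Secreted liver proteins were high in these cells. Of 28 compared, 12 were at least 2-fold higher (10.2% of all genes were) and none lower, with a median log2 ratio of 0.90. Apoe, the lipoprotein ligand of the LDL receptor, had 30100 against 10473 CPM (1.92). Its median was 192 UMIs per 10000 per cell, against 45.4 in the matched reference, and the ranges, 9.59 to 1400 and 4.85 to 1600, overlapped. Transferrin (Trf) had 15457 against 4866 (2.07), Ambp, the precursor of α1-microglobulin, 2985 against 902 (2.13), and the retinol carrier Rbp4 10146 against 4115 (1.70). Serpina3k had −0.68. This difference moved with the hepatocyte gate: among the 79 selected and 156 reference cells with at least 5% of UMIs in the gate genes, 2 of 28 were 2-fold higher and 3 lower, with a median of 0.33. Among cells with under 1% mitochondrial UMIs 6 were higher. The part of the gate in the result was not tested.

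Pericentral enzymes were lower. Of 8 pericentral genes compared 5 were at least 2-fold lower (5.06% of all genes were), namely Glul, Cyp2e1, Oat, Rgn and Aldh3a2 (−1.08), and 1, Cyp1a2 (1.87), was higher, with 28.3% of its UMIs in 1 cell. The median was −1.43, and −0.92 with the matched reference, where 4 were lower and Aldh3a2 (−0.74) was not. The rule capped Car3 at 1 UMI per cell in both classes, at median depths of 5481 and 2311 UMIs. Car3 itself stood at 34.2 and 115 CPM. The 5 lower genes were higher in the class with 2 or more Car3 UMIs than in the reference, with Rgn at 4129 CPM. The part of the Car3 gate in these results was not tested. Of 10 periportal genes, the ornithine transcarbamylase gene Otc (−1.11) was 2-fold lower and the median was −0.43. With the matched reference Otc had −0.74 and none of the 10 was 2-fold lower. Ass1 and Arg1 of the urea cycle had −0.67 and −0.46. Cyp3a25 and Alas1 (−1.19 and −1.09), of the 3 genes compared that are induced through CAR and PXR, were 2-fold lower, but had −0.54 and −0.72 with the matched reference. The bile acid and drug carrier Slco1b2 (−1.40) was lower, 1 of 3 bile acid genes compared, of which 1, Ephx1, was higher. Of 7 hepatocyte transcription factors Cebpa (91.7 CPM, a log2 ratio of −1.04) was lower, and all 7 ratios were under 0 with a median of −0.83. Hnf4a had −0.21. The nuclear RNA Malat1 had 579 against 2065 CPM (−1.43), with 34.6% of it in 1 selected cell.

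**Figure D5:**
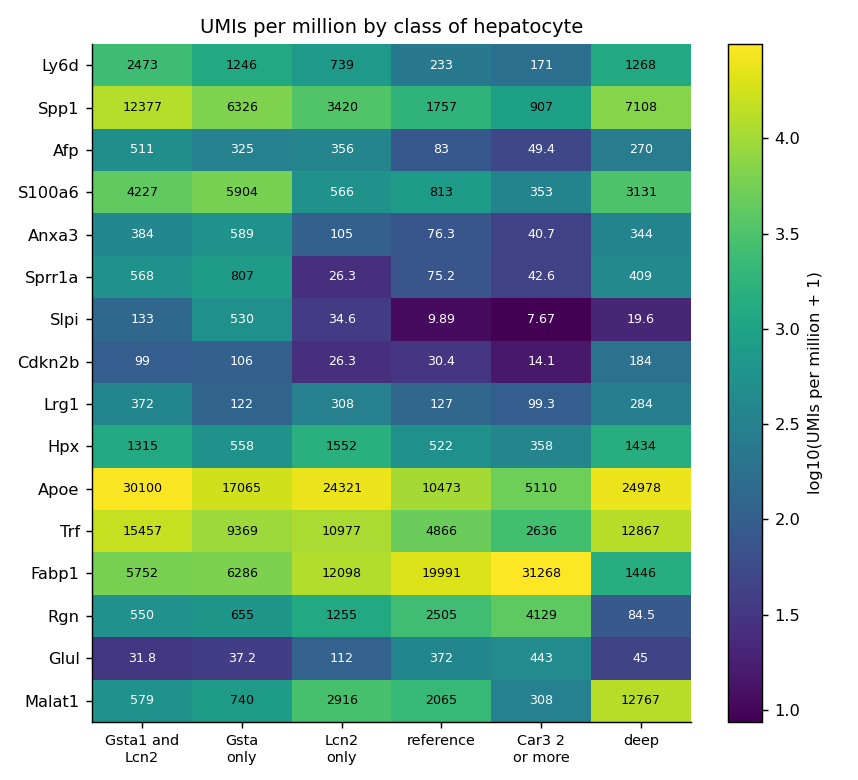
Colours and printed values give CPM of 16 genes in 6 classes of hepatocyte on a log10(value + 1) colour scale, without TMM scaling. S100a6, Anxa3 and Sprr1a are high in both classes chosen for Gsta RNA and in the deep class. Lrg1 and Hpx are high in both classes chosen for Lcn2 RNA and in the deep class. Fabp1, Rgn and Glul are highest in the class with 2 or more Car3 UMIs.

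The cells with Gsta RNA but no Lcn2 UMI were close to the selected ones. Of 2166 genes, 34 (1.57%) were at least 2-fold higher in the selected cells and 9 (0.416%) lower. With Gsta-only cells matched in UMIs these counts were 52 and 13. The higher genes included acute phase and secreted proteins, with 6 of 17 and 5 of 28 list members, medians of 0.88 and 0.68 and a median of −0.03 over all genes. Lrg1 stood at 372 against 122 CPM (log2 ratio 1.77), Hpx at 1315 against 558 (1.40), Hp at 3924 against 1825 (1.26), Ly6d at 2473 against 1246 (1.15) and Spp1 at 12377 against 6326 (1.13). The chemokine Ccl2 had 143 against 40.0 , with 29.1% in 1 cell. Lower were Crct1, a squamous envelope gene with 14.7 against 120 (−2.87), and Slpi, with 133 against 530 (−1.83). None of the 24 cytoskeletal, annexin and S100 genes and none of 21 glutathione genes was 2-fold apart. These genes outside the naming rule were chosen after their values were seen. The Lcn2-only cells had 566 CPM of S100a6 and 26.3 of Sprr1a, under the reference levels of 813 and 75.2.

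Against the 1781 deep hepatocytes, 195 of 2358 genes (8.27%) were at least 2-fold higher in the selected cells and 285 (12.1%) lower. Depth differed by construction, with medians of 5481 and 41284 UMIs. Hashtag calls were spread unevenly as well. HTODemux called 139, 932 and 4 deep cells for hashtags 1, 2 and 3, beside 3, 10 and 1 selected cells. The fixed rule gave 372, 322 and 1 deep cells, beside 34, 1 and 0 selected cells. Ly6d, Spp1, Afp and S100a6 were at 1268, 7108, 270.4 and 3131 CPM in the deep cells and so lay between the selected and the reference cells, as did Igfbp3 at 261. Rgn (log2 ratio 2.89) and Fabp1 (2.18) were higher in the selected cells than in the deep ones. Of 14 immediate early and heat shock genes 13 were at least 2-fold lower in the selected cells, with a median of −2.19. Jun had 63.6 against 773 CPM, the growth factor Gdf15 108 against 1290, and Malat1 579 against 12767, beside mitochondrial shares of 0.785% and 8.63%. The part of the mouse of origin and of nuclear and mitochondrial content in these differences was not tested.

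The construct was more abundant in the selected cells than in the reference. The Nras row, which counts the mouse gene and may take up reads of the construct, had 1071 CPM (1001 to 1144) against 154 (140 to 169). A single cell held 305 of the 876 UMIs, and without it the level was 705 (648 to 765). The 65 selected cells with a Gsta sum of 3 to 5 stood at 172 (128 to 226), an interval that overlaps that of the reference. Nras UMIs were found in 48.7% of the selected cells (40.5 to 56.9) and 22.7% of the reference, and in 33.1% (25.4 to 41.5) and 18.3% after thinning to 2000 UMIs. Endothelial marker barcodes, which should lack the construct, gave 35.6%, and 23.2% after thinning. MHC class II barcodes gave 32.9% and 12.7%. The reference share thus lay below both before thinning and between them after it. These shares may hold UMIs of the mouse gene, and 1 reference cell held 49 Nras UMIs. Whether the reference cells held the construct was not tested. The share of the selected cells lay above both, though after thinning its interval overlapped the endothelial one (19.8 to 26.8). For mVenus the shares were 14.5% (9.30 to 21.1) in the selected cells, 2.30% in the reference and 5.55% in the endothelial barcodes, or 7.04% (3.43 to 12.6), 1.33% and 2.73% (1.57 to 4.39) after thinning, where the first and last intervals overlapped. The Car3 class had mVenus UMIs in 8.20% of its cells, and in 6.25% after thinning, and the deep hepatocytes in 8.03% after thinning, close to the selected cells. The Gsta-only cells had 1075 CPM of Nras and 44.9 of mVenus, close to the 1071 and 51.3 of the selected cells, and the Lcn2-only cells 83.0 and 6.92. All cells were sorted for mVenus but 22 of the 152 had an mVenus UMI, and at these depths a count of 0 does not show that the construct was absent.

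The selected cells differed among themselves. Splits by Gsta and Lcn2 UMIs use the values of the rule and are given as a description. The 87 cells with a Gsta sum of 6 or more had 5380 CPM of S100a6 and the 65 cells with 3 to 5 had 2195. Sprr1a stood at 787 and 182, Krt18 at 2274 and 1202, Slpi at 201 and 13.5 and Fabp1 at 4382 and 8166 in the same order. Nras stood at 1011 without its highest cell and at 172. The 82 cells with 2 or more Lcn2 UMIs had 5018 CPM of Hp and 38007 of Apoe, and the 70 cells with 1 had 2452 and 19458, while S100a6 was 4191 and 4276. Some genes differed alike in both splits: Ly6d stood at 2880 and 1756 by Gsta and 2904 and 1893 by Lcn2, and Spp1 at 13923 and 9652 and at 14444 and 9596. Depth differed as well, with medians of 5916 and 4242 UMIs for the Gsta split and 5879 and 4819 for the Lcn2 split, and its part was not tested. By mitochondrial share, the 65 cells at 1% or more had 18985 CPM of Spp1, 47284 of Apoe and 2956 of Fabp1, and the 87 cells under 1% had 6474, 14748 and 8249. Both groups stood above the reference cells of the same mitochondrial range in Ly6d, at 3021 against 537 and 1984 against 144. In the same order Spp1 was at 18985 against 5335 and 6474 against 707. Krt18 was at 1435 against 1016 and 2289 against 701, and Hp at 3715 against 3427 and 4111 against 1943. The mitochondrial share was under 1% in 813 of the 1001 reference cells, and its part in the pooled ratios was not tested.

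By HTODemux hashtag 2 was the only tag with 10 selected cells, and by the fixed rule hashtag 1, with 34 selected and 144 reference cells. Median counts per selected cell were 12, 2 and 3 UMIs for hashtags 1, 2 and 3. The fixed minimum of 10 UMIs thus lay near the usual hashtag 1 count, and HTODemux called 3 selected cells for that tag. Whether the fixed-rule cells came from 1 mouse was not tested. In those fixed-rule cells Ly6d was at 2162 CPM in the selected and 178 in the reference cells. Spp1 was at 11901 and 877, S100a6 at 3688 and 304, and Fabp1 at 6961 and 24510. The hashtag 2 cells were less far apart. The 10 selected and 36 reference cells had 619 and 170 CPM of Ly6d, from 36 and 25 UMIs, and 2132 and 727 of S100a6, from 124 and 107 UMIs. Spp1 was at 2803 and 2378 CPM, a scaled log2 ratio of 0.20 in place of 3.22. Fabp1 was at 6655 and 12956, and Rgn at 929 and 1923. Of the 24 genes named by size, 22 kept their direction in the hashtag 2 cells, and Csn3 (−0.12) and Csrp3 (0.56) did not.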

How the data were processed

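Both libraries, made with the 10x 3′ v3 chemistry, were analysed from the counts that the authors deposited: UMI counts per gene and per hashtag for each barcode, raw and not normalized. Per the labels the authors used Cell Ranger 2.1.1 on mm10, while the matrix header names version 3.0.2. Hashtags were counted by the authors with CITE-seq-Count, no mismatch allowed. The gene library held 142072118 UMIs on 31053 gene rows in 13151 barcodes (median 3908), of which 13141 were also in the hashtag library. The 6 hashtag rows and mVenus stayed out of totals. The gene table gives 1 barcode suffix, so the 2 droplet lanes were not separated.

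UMIs were summed per class and given as CPM with exact Poisson 95% intervals, shares with exact (Clopper-Pearson) intervals and ratios with exact conditional binomial intervals, all for counting error only. Ratios were scaled by TMM (edgeR 4.0.16) and, as an alternative, by DESeq2 1.42.0 size factors. A class at 0 was set to a floor of 3 counts. The 20 genes used by the rule or to choose the cells, Nras included, were left out of the gene counts. The script was tested on simulated counts. Hashtags were called with HTODemux (Seurat 5.3.0, quantile 0.99), which marked 1 selected cell as a doublet of different tags. No other doublet caller was run, so doublets among uncalled cells remain. The planned edgeR test paired by mouse was not run, as its minimum of 10 selected cells in each of 2 mice was not met.

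Genes named were those of the rule, the given markers, the 12 highest and 12 lowest ratios at 50 or more CPM, and list genes. The requirement of a passed test and of 1 direction in every mouse could not be applied. A gene that met the naming rule is not reported here. The cells and the 24 gene lists were chosen with earlier results of these data known. Promoters and transcripts came from RefSeq and GENCODE (GRCm38), and all 3 Gsta genes matched by symbol.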

Additional observations from a re-analysis of the deposited data

How the results depend on the processing

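No paired analysis was possible because only 1 mouse reached the minimum of 10 selected cells with a hashtag call that the design set. The planned DESeq2 test, the fit without the replicate block and leaving out each mouse were not run for the same reason, and every difference is between pools of cells. The cause of each shift below was not tested unless stated.

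Counts of genes at least 2-fold higher and lower than the reference were 247 and 123. They were 250 and 121 with DESeq2 size factors. They became 129 and 339 by library size alone, and 1692 and 1134 with no filter on low counts, which compares 10467 genes. With no Car3 limit on the reference 315 were lower, with a Gsta sum of at least 5 UMIs 217, and with cells of the fixed tag rule 309. Among cells with at least 5% hepatocyte gene UMIs 150 were higher, and there were 79 selected and 156 reference cells. In an alternative chosen after seeing the data, the cells called for hashtag 2 gave 398 and 538 on 10 and 36 cells. The share of calls that were higher was 66.8%, against 27.6% by library size, 51.6% with no Car3 limit, 48.7% at the 5% gate, 54.4% with the Gsta sum of at least 5, 49.8% with the fixed tag rule, 54.1% under 1% mitochondrial UMIs (also chosen after seeing the data) and 42.5% in hashtag 2. Of the deep-cell calls 40.6% were higher, against 29.5% with the fixed tag rule. Gsta-only cells matched in UMIs, also chosen after seeing the data, gave 52 higher genes in place of 34. With the fixed tag rule the share of selected cells among gated hepatocytes rose to 8.99% in place of 3.75% for hashtag 1. It was 3.03% in place of 9.52% for hashtag 2 and 0% in place of 1.92% for hashtag 3. After thinning to 2000 UMIs the HTODemux shares were 1.89%, 2.33% and 0% for hashtags 1, 2 and 3. For the 24 genes named by size, 265 of 360 alternative values stayed within their counting interval, 93 moved in the same direction and 2 reversed, Csn3 (−0.12) and Csrp3 (0.56) in hashtag 2. Of the 265, 24 came from dropping the low-count filter, which cannot change a ratio, and 24 from DESeq2 size factors, which hardly moved the scaling. Fewest stayed in hashtag 2 (7 of 24) and at the 5% hepatocyte gate (8 of 24). Low counts, such as the 26 UMIs of Glul, limit the precision of most of the lower genes.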
